A study of Mus musculus with 20 samples.

Results

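The genes described here are 8 receptors by which natural killer (NK) cells are staged and by which they move: the maturation molecules Cd27, Itgam and Spn, the sphingosine-1-phosphate (S1P) receptors S1pr1 and S1pr5, and the chemokine receptors Cxcr3, Cxcr4 and Cx3cr1. They were chosen by name, as every probe that carries one of these gene names (or the older names Edg1 and Edg8) on the array, which gave 13 of 41174 probes and 8 of the 17477 genes tested. The RNA came from NK cells of the spleens of male C57BL/6 mice, 1 array per mouse and 5 mice per group, each mouse a separate donor. Gavage was repeated daily for 14 days with water in the control group, 5.3 mg/kg of ptaquiloside, 1.3 mg/kg of selenium, or these doses of ptaquiloside and selenium combined. Ptaquiloside is a carcinogen of bracken fern, a norsesquiterpene glucoside, and selenium an essential trace element. The cells were left unbound while other spleen cells were held back on magnetic columns, so the arrays measured an enriched population and not sorted single stages.

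NK cells of the mouse pass from a stage that carries CD27 alone through one with CD27 and CD11b to one with CD11b alone, and CD43 is gained late in the same sequence. Egress from bone marrow and lymphoid tissue follows S1P gradients, which NK cells read mainly through S1PR5 and T and B lymphocytes mainly through S1PR1. CXCR4 holds cells where CXCL12 is made, CXCR3 draws them to inflamed tissue, and CX3CR1 marks the most mature NK cells in blood and spleen.

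For 4 of the 8 genes the array carries more than 1 probe, and the results below turn on how probes of 1 gene differ. Coordinates are on mouse build mm9, as the scanner files give them, with the strand of the gene's probe; no annotation of exons or untranslated regions on this build was used here. The pairs of Cxcr4 (chr1:130485659-130485718 and chr1:130485079-130485138, minus strand) and Cx3cr1 (chr9:119960610-119960669 and chr9:119959018-119959077, minus strand) are shown because their probes behaved differently on dim arrays. In both pairs the first probe is the upstream one, with starts 580 and 1592 bases apart. The S1P receptor probes (S1pr1 at chr3:115414020-115414079 and S1pr5 at chr9:21047678-21047737, both minus strand) are shown because they carry the largest group difference and the closest relation to NK markers. Upstream probes are printed whole, and of the others the first 30 bases of 60, all 5′ to 3′ in lower case.
Cxcr4 upstream probe: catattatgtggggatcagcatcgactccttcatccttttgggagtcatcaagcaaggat
Cxcr4 downstream probe, first 30 bases: aggaagaaactgaacattccagaatgtgtg
Cx3cr1 upstream probe: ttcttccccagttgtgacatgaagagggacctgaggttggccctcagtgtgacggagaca
Cx3cr1 downstream probe, first 30 bases: caagaatgtcttcatgcattcactgactcc
S1pr1 probe, first 30 bases: aagatgaaaatgtgttccttttttgtcaca
S1pr5 probe, first 30 bases: ggacaggttcttcatacaaattacaaccac

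Values are log2 processed signal minus the 75th percentile of the same array, so 0 is the level of a bright but not extreme probe on that array; a level belongs to 1 probe and is not set against that of another gene. Where a gene had several probes, the one brightest over all arrays stands for it. The 75th percentile of signal was 10.5 scanner units on the array of ptaquiloside mouse 4, with 36.3% of its spots well above background, against 45.5 to 133 units and 51.7% to 60.8% on the other 19 arrays. Mouse 5 given both compounds had the second lowest percentile, 45.5. Every slide carried the 4 mice of 1 mouse number, and the place of an array on its slide was the same for a whole group, so that place and treatment cannot be told apart. Of the 13 member probes 10 were well above background on all 20 arrays and 0 were saturated. Of 14 NK markers 13 were above background on each of the 19 brighter arrays. So were 10 of 11 tested T cell markers, 9 of 14 B cell markers and 10 of 11 neutrophil markers. The counts were 11 of 13 for macrophages and monocytes, 8 of 10 for dendritic cells, 6 of 8 for erythroid cells and 6 of 6 for platelets. Tested genes had already passed a filter on signal above background. Detection of NK markers therefore does not check the label of NK cells.

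None of the 8 receptors passed the threshold in any of the 5 pairwise comparisons, as an interaction or in the F-test over the 4 groups (limma, Benjamini-Hochberg adjustment over 17477 genes at 0.05; 0 genes called in each, 0% of all). The number of arrays limits the precision: half-widths of the 95% intervals ran from 0.48 to 0.94 on the log2 scale over the members and the comparisons between groups. At an unadjusted limma p under 0.05 there was 1 of 8 members for ptaquiloside against control (Cx3cr1; 1.5% of all genes), 1 for selenium against control (S1pr1; 1.05%) and 1 for both compounds against selenium (S1pr1 again; 0.584%). There were 0 members for both compounds against control (0.229% of all genes), both compounds against ptaquiloside (2.43%), the interaction (1.2%) and the 4 groups (0.961%). In 0 of the 5 comparisons did any member separate the groups without overlap, and the shares of all genes that did so, higher and lower, were 0.0572% and 0.0572% for ptaquiloside, 0.223% and 0.275% for selenium and 0.0687% and 0.0858% for both compounds against control. They were 0.103% and 0.0973% for both compounds against ptaquiloside and 0.0973% and 0.0629% against selenium. Without the array of ptaquiloside mouse 4 the members at an unadjusted p under 0.05 were S1pr1 for selenium against control (2.6% of all genes), for both compounds against selenium (1.69%), in the interaction (2.27%) and among the 4 groups (1.65%), and Itgam for both compounds against ptaquiloside (2.77%). There were then 0 for ptaquiloside (1.5%) and for both compounds (0.601%) against control, and again 0 adjusted calls among all genes. With the slide as a block and all arrays, 1 member stood at an unadjusted p under 0.05, S1pr1 for both compounds against selenium (1.13% of all genes). There were 0 for ptaquiloside (2.64%), selenium (1.89%) and both compounds (0.406%) against control, for the combined group against ptaquiloside alone (4.09%), in the interaction (2.09%) and among the 4 groups (2.1%). Several of these comparisons share groups, so their counts are not independent.

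**Figure D1:**
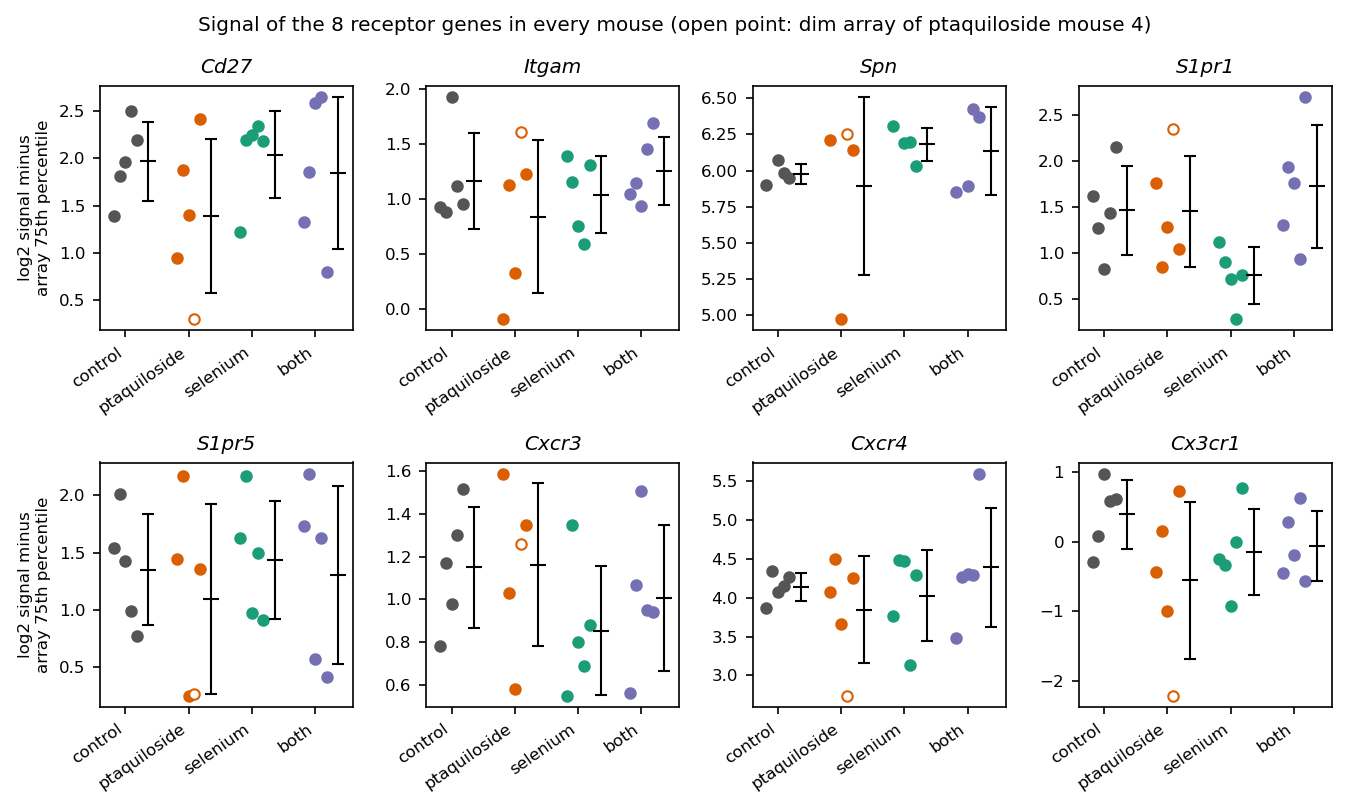
Signal of each receptor (log2 signal above or below the 75th percentile of its array, vertical axis) in every mouse of the 4 groups, from the brightest probe of each gene; points are mice in order of mouse number, the bar is mean and SD, and the open point is the dim array of ptaquiloside mouse 4. S1pr1 is lowest as a group in selenium mice (0.28 to 1.12), and Cd27, Cxcr4 and Cx3cr1 have their lowest point on the dim array.

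S1pr1 had the lowest signals in mice given selenium alone and gave the largest difference among the members without the dim array. The receptor is the main S1P sensor of T and B lymphocytes. In control mice 1 to 5 its level was 1.62, 1.27, 0.83, 1.44 and 2.16. In selenium mice it was 1.12, 0.90, 0.72, 0.28 and 0.76, so that 4 of the 5 control mice lay above every selenium mouse and control mouse 3 within their range. The levels were 1.76, 0.85, 1.28, 2.35 and 1.04 with ptaquiloside, the 2.35 being the dim array, and 1.30, 1.94, 1.76, 0.93 and 2.70 with both compounds. Group means were 1.73 ± 0.67 (SD, n = 5) with both compounds, 1.46 ± 0.48 (SD, n = 5) in control, 1.46 ± 0.60 (SD, n = 5) with ptaquiloside and 0.75 ± 0.31 (SD, n = 5) with selenium. The first 3 of these means lay closer together than the spread within any of them. The step from control to selenium exceeded the SD of either group.

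Selenium minus control was -0.71 ± 0.34 (SE) for S1pr1, a 1.63-fold lower signal (95% interval -1.41 to -0.0030, limma adjusted p = 1). Within slides the difference was -0.50, -0.37, -0.11, -1.16 and -1.40, lower on 5 of 5, which holds for 4.25% of all genes. With the slide as a block the interval was -1.45 to 0.033 on all arrays. Without the dim array it was -1.335 to -0.081, and -1.28 to -0.13 with the slide as a block as well (limma adjusted p = 0.902). Both compounds minus selenium was 0.98 ± 0.34 (SE), a 1.97-fold higher signal (95% interval 0.27 to 1.68, limma adjusted p = 1). It was higher on 5 of 5 slides, by 0.19, 1.04, 1.05, 0.65 and 1.95, as were 2.19% of all genes. Without the dim array and with the slide as a block, both compounds minus selenium had an interval of 0.40 to 1.55 (limma adjusted p = 0.999). Both differences use the same selenium mice. The interaction, which asks whether ptaquiloside did the same in mice with and without selenium, was 0.98 ± 0.48 (SE; 95% interval -0.017 to 1.98, limma adjusted p = 0.998). Without the dim array it was 1.20 ± 0.43 (SE; 0.29 to 2.12, limma adjusted p = 1). With the slide as a block as well, the interaction had an interval of 0.46 to 2.16 (limma adjusted p = 0.971).

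Markers of T cells, B cells and macrophages or monocytes tended to lower signals in the same mice. Scores of the T cell list (the mean log2 deviation of its 11 tested genes from each gene's mean) lay between -0.51 and -0.26 in selenium mice, against -0.25 to 0.90 in control, -0.56 to 0.71 with ptaquiloside and -0.49 to 1.09 with both compounds. B cell scores, over 14 genes, were -1.01 to 0.10 with selenium, -0.30 to 1.04 in control, -1.42 to 0.81 with ptaquiloside and -1.24 to 1.29 with both compounds. Macrophage and monocyte scores, over 13 genes, were -0.42 to 0.16 with selenium and -0.33 to 0.78 in control. By gene, 0 of 11 T markers and 1 of 14 B markers were higher with selenium than in control (medians -0.38 and -0.91), and 14 of 14 NK markers were higher (median 0.24; all genes 0.014). Between both compounds and selenium 11 of 11 T and 14 of 14 B markers were higher (medians 0.42 and 0.71), and 1 of 14 NK markers was (median -0.12; all genes 0.0010). Of macrophage and monocyte markers 2 of 13 were higher with selenium than in control (median -0.41), and 10 of 13 were higher with both compounds than with selenium (median 0.27). Platelet markers ran the other way, with 6 of 6 and then 0 of 6 higher (medians 0.27 and -0.53). The medians of the neutrophil, dendritic and erythroid lists were 0.20, -0.10 and 0.14 for selenium against control and -0.09, 0.07 and -0.20 for both compounds against selenium. limma called 0 genes of any of these lists. At an unadjusted limma p under 0.05 for selenium against control stood 3 macrophage and monocyte markers and 1 each of T, B and dendritic markers (1.05% of all genes). For both compounds against selenium there were 2 T markers and 1 each of B, neutrophil and platelet markers (0.584% of all genes). The part of other cell types in the S1pr1 difference was not tested, and in bulk RNA fewer cells of a type and less RNA per cell cannot be told apart.

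Across mice S1pr1 followed the T cell score. Over the 19 arrays without the dim one Pearson's r was 0.79 and Spearman's rho 0.77 (permutation p = 2.0e-05 and 2.3e-04; adjusted over 64 pairs of a member and a marker list, 0.00128 and 0.00736), and r was 0.91 without the 2 mice farthest from the median S1pr1 level. With slide means removed r was 0.85 (permutation within slides, adjusted p = 0.0218). Against the B cell score r was 0.61 and rho 0.70 (adjusted permutation p = 0.122 and 0.0262), and 0.76 with slide means removed (adjusted p = 0.105). Against the macrophage and monocyte score r was 0.48 and rho 0.43 (adjusted permutation p = 0.33 and 0.433). Against the NK score r was -0.50 (adjusted permutation p = 0.33), and -0.68 with slide means removed (adjusted p = 0.261). No marker list contains a member gene, and points of 1 slide share a hybridisation. The 4 groups were pooled and group means were not removed, so differences between groups enter these correlations. The relation within single groups was not tested.

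**Figure D2:**
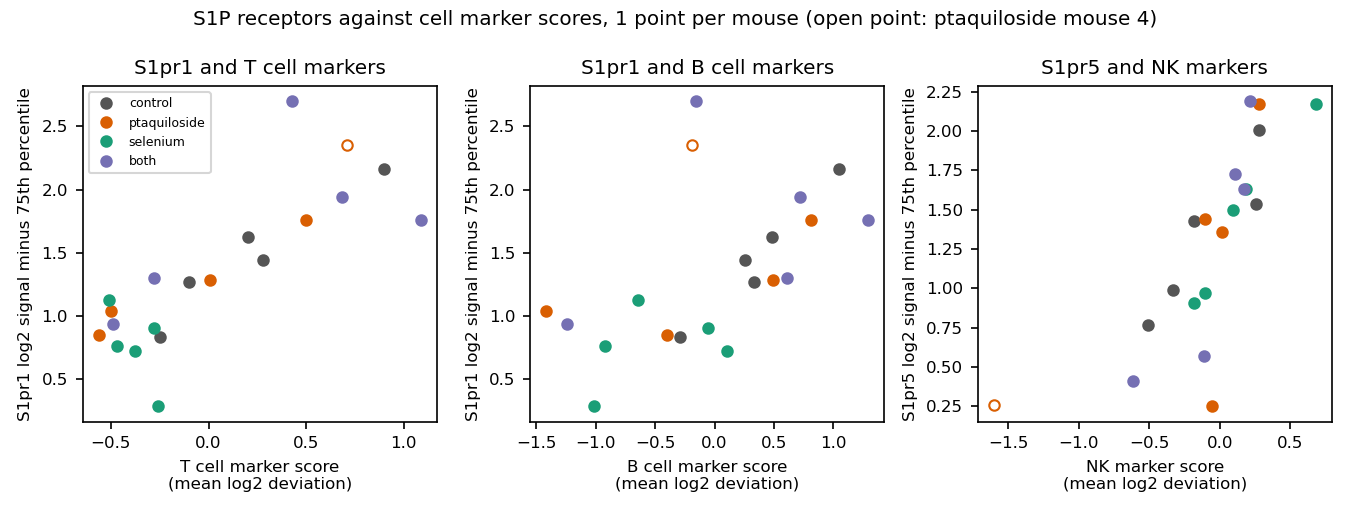
Level of S1pr1 against the T cell score (left) and the B cell score (middle), and of S1pr5 against the NK score (right); axes are log2 signal minus the array's 75th percentile and mean log2 deviation of the list's genes, 1 point per mouse, coloured by group, the open point being ptaquiloside mouse 4. The 5 selenium mice sit at the low end of both axes on the left, with T cell scores of -0.51 to -0.26, and mice with a higher NK score have a higher S1pr5 signal.

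S1pr5, the S1P receptor that lets NK cells leave bone marrow and lymph nodes, differed little between groups and widely between mice. Its levels were 1.54, 2.01, 1.43, 0.99 and 0.77 in control mice 1 to 5 and 1.63, 2.17, 0.97, 1.50 and 0.91 with selenium. They were 1.44, 2.17, 0.25, 0.26 and 1.36 with ptaquiloside and 1.73, 2.19, 0.57, 1.63 and 0.41 with both compounds. Mouse 2 was the highest of its group in all 4 groups, and all groups overlapped. Differences from control were -0.25 ± 0.41 (SE) for ptaquiloside, 0.090 ± 0.41 for selenium and -0.043 ± 0.41 for both compounds, all with limma adjusted p of 0.831 or higher. With the slide as a block the SE fell to 0.27, still without a call.

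S1pr5 was the member that passed against the NK marker score over the 19 arrays, before slide means were removed. Its r was 0.79 and rho 0.84 (permutation p = 6.0e-05 and 3.0e-05, both 0.00192 adjusted over 64 pairs), with r of 0.83 without the 2 farthest mice. With slide means removed r was 0.48 (permutation within slides, adjusted p = 0.32), so within slides the relation did not pass. Cd27 then had r of 0.52 with the NK score (adjusted permutation p = 0.261), against 0.10 before slide means were removed. S1pr1 and S1pr5 themselves ran opposite to each other within slides, at r of -0.62 and rho of -0.62, which did not pass after adjustment over 28 pairs of members (permutation p = 0.0219, adjusted 0.321).

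None of the maturation molecules was called in any comparison, and their groups overlapped. Cd27, the costimulatory receptor for CD70 that is lost from the most mature NK cells (probe at chr6:125183076-125183135), was 1.39, 1.81, 1.96, 2.50 and 2.20 in control and 1.22, 2.20, 2.25, 2.34 and 2.19 with selenium. It was 0.95, 1.88, 1.40, 0.30 and 2.42 with ptaquiloside and 1.33, 1.86, 2.59, 2.65 and 0.80 with both compounds. The lowest signals of these last groups, 0.30 and 0.80, were on the arrays with the lowest percentiles. Ptaquiloside minus control was -0.58 ± 0.40 (SE; limma adjusted p = 0.802), and -0.31 ± 0.38 without the dim array. Selenium minus control was 0.069 ± 0.40 and both compounds minus control -0.13 ± 0.40 (limma adjusted p = 1 for each).

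Itgam, the CD11b chain of complement receptor 3 (chr7:135260933-135260993, with a further probe at chr7:135261475-135261534), was 0.93, 0.88, 1.93, 1.12 and 0.96 in control. It was -0.090, 1.13, 0.33, 1.61 and 1.23 with ptaquiloside, 1.39, 1.16, 0.76, 0.59 and 1.31 with selenium and 1.05, 1.15, 0.94, 1.46 and 1.69 with both compounds. Ptaquiloside mice 1 and 3 were the lowest of the 20 and the other arrays overlapped. Ptaquiloside minus control was -0.32 ± 0.30 (SE), and -0.51 ± 0.29 without the dim array (95% interval -1.11 to 0.085, limma adjusted p = 1). Selenium minus control was -0.12 ± 0.30 and both compounds minus control 0.094 ± 0.30 (limma adjusted p = 1 for each). Both compounds minus ptaquiloside was 0.42 ± 0.30, and 0.61 ± 0.29 without the dim array (0.0090 to 1.21, limma adjusted p = 0.998). The levels of both probes correlated at r of 0.83 and rho of 0.86 over the 19 arrays, and the further probe gave 0.45 ± 0.25 for the same comparison on all arrays and 0.31 ± 0.21 without the dim one (-0.13 to 0.75).

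Spn, the sialomucin CD43 that NK cells gain late in maturation, has 3 probes, the brightest at chr7:134277313-134277372. That probe was marked as an outlier spot on all 4 arrays of mouse number 2, so its fit used 4 mice per group. It was 5.90, 6.07, 5.98 and 5.95 in control and 6.31, 6.19, 6.20 and 6.03 with selenium. It was 6.21, 4.97, 6.25 and 6.14 with ptaquiloside and 5.85, 5.89, 6.43 and 6.37 with both compounds, so ptaquiloside mouse 3 alone was far below the rest. Control mice varied least, with 5.98 ± 0.070 (SD, n = 4). Differences from control were -0.085 ± 0.27 (SE) for ptaquiloside, 0.21 ± 0.27 for selenium and 0.16 ± 0.27 for both compounds (limma adjusted p of 0.905 or higher). By this probe the selenium difference was positive on 4 of 4 slides, by 0.41, 0.12, 0.22 and 0.07, as were 7.47% of all genes on these slides. It was smaller than the pooled spread between mice (residual SD 0.39). The other probes did not show it: selenium minus control was 0.023 ± 0.4 (SE) on the upstream probe and 0.035 ± 0.36 on the most downstream one. Ptaquiloside minus control was -0.64 ± 0.4 and -0.43 ± 0.36 on these probes, and -0.25 ± 0.31 and -0.53 ± 0.36 without the dim array.

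Because CD27 and CD11b mark opposite ends of NK maturation, the difference Itgam minus Cd27 was taken within each array. Its absolute value depends on the probes, so only its order over arrays was read, for the brightest Itgam probe. It was 1.31 on the dim array of ptaquiloside mouse 4 and 0.89 in mouse 5 given both compounds, and between -1.75 and 0.18 on the other 18 arrays. Those 18 arrays overlapped between all groups. The highest values thus lay on the arrays with the lowest percentiles, and what that dimness did to the difference was not tested. The order also depends on the probe. On the dim array Itgam was 1.61 by its brightest probe but 0.18 by the further one, below Cd27 at 0.30. In mouse 5 given both compounds the further probe, at 1.36, stayed above Cd27 at 0.80.

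Among the chemokine receptors Cx3cr1 had the largest difference from control by its brightest probe, and it was smaller without the dim array. Cx3cr1 is the fractalkine receptor of mature NK cells and of patrolling monocytes. Its brighter, downstream probe gave -0.29, 0.080, 0.98, 0.59 and 0.61 in control and -0.43, 0.15, -0.99, -2.21 and 0.73 with ptaquiloside. It gave -0.25, -0.34, -0.93, 0.0 and 0.77 with selenium and -0.45, 0.28, -0.19, 0.63 and -0.56 with both compounds. The -2.21 was the dim array and was not well above background. Ptaquiloside minus control was -0.94 ± 0.45 (SE), 1.92-fold lower (95% interval -1.88 to -0.0060, limma adjusted p = 0.802), and -0.53 ± 0.38 without the dim array (-1.32 to 0.26, limma adjusted p = 1). With the slide as a block the interval on all arrays was -1.91 to 0.027. Within slides the difference was -0.13, 0.07, -1.97, -2.80 and 0.12 from slide 1 to 5, so slides 3 and 4 gave the mean its sign. Selenium minus control was -0.54 ± 0.45 and both compounds minus control -0.45 ± 0.45 (limma adjusted p = 1 for each). The upstream probe, above background on 10 of 20 arrays, had a higher mean with ptaquiloside (-3.04) than in control (-3.57). Without the dim array its differences from control were -0.18 ± 0.40 (SE) for ptaquiloside, -0.49 ± 0.37 for selenium and -0.41 ± 0.37 for both compounds.

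Cxcr4, the CXCL12 receptor that retains NK cells in bone marrow, was 3.87, 4.34, 4.08, 4.15 and 4.27 in control on its downstream probe. It was 4.07, 4.50, 3.66, 2.74 and 4.26 with ptaquiloside, 3.76, 4.49, 4.47, 3.13 and 4.29 with selenium, and 3.48, 4.27, 4.31, 4.29 and 5.60 with both compounds. The extremes over all 20 mice, 2.74 and 5.60, were on the arrays with the lowest percentiles. Differences from control were -0.30 ± 0.37 (SE) for ptaquiloside, and -0.022 ± 0.34 without the dim array, -0.12 ± 0.37 for selenium and 0.25 ± 0.37 for both compounds (limma adjusted p of 0.802 or higher). Without mouse 5 given both compounds the last was -0.057. The upstream probe, in the fit without the dim array, gave -0.043 ± 0.33 (SE) for ptaquiloside, -0.11 ± 0.31 for selenium and -0.21 ± 0.31 for both compounds. The SD of the downstream probe was 0.18 (n = 5) in control, 0.58 (n = 5) with selenium, 0.69 (n = 5) with ptaquiloside and 0.76 (n = 5) with both compounds. Without the arrays of lowest percentile it was 0.36 (n = 4) with ptaquiloside and 0.40 (n = 4) with both compounds.

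Cxcr3, the receptor for the interferon-induced ligands CXCL9 and CXCL10 (chrX:98926920-98926979), lay between 0.55 and 1.59 in all 20 mice, with all groups overlapping. It was 0.78, 1.17, 0.98, 1.30 and 1.52 in control and 0.55, 1.35, 0.80, 0.69 and 0.88 with selenium. It was 1.59, 1.03, 0.58, 1.26 and 1.35 with ptaquiloside and 0.56, 1.07, 1.51, 0.95 and 0.94 with both compounds. Selenium minus control was -0.30 ± 0.23 (SE; limma adjusted p = 1), and both compounds minus control was -0.15 ± 0.23. Ptaquiloside minus control was 0.010 ± 0.23, with an interval of -0.47 to 0.49.

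**Figure D3:**
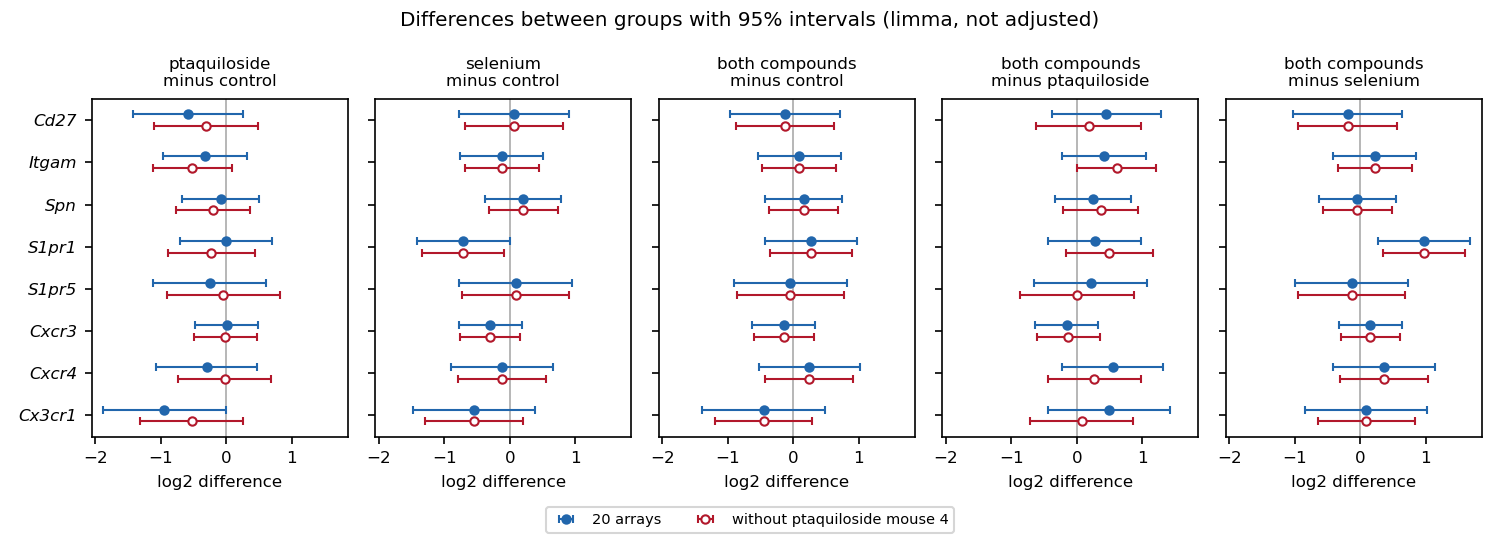
Log2 differences between groups (horizontal axis) for each receptor with 95% intervals from limma, not adjusted for the number of genes; filled points use all 20 arrays and open points leave out ptaquiloside mouse 4. S1pr1 for both compounds minus selenium has an interval of 0.27 to 1.68, and Cx3cr1 for ptaquiloside minus control moves from -0.94 to -0.53.

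As a set, the 8 receptors had a median of -0.28 for ptaquiloside against control, with 7 lower and 1 higher (all genes -0.0030, 49.7% higher). Without the dim array the median was -0.22, with 8 lower (all genes -0.0010, 49.8% higher). Of these 8, Cxcr3 (-0.013), Cxcr4 (-0.022) and S1pr5 (-0.043) were very small, and all share the same control mice. Signs of small differences depended on the scaling: Spn and S1pr1 turned positive here with quantile normalization or normexp correction, and Cxcr3 turned negative with median scaling. For selenium the median was -0.12 with 3 higher (all genes 0.014, 52.7% higher), and for both compounds against control 0.030 with 4 higher (all genes 0.019, 54.5% higher). Both compounds had a median of 0.34 against ptaquiloside, with 7 higher (all genes 0.011, 50.9% higher). Without the dim array this median was 0.22, with 7 higher (all genes 0.016, 52.6% higher). With the slide as a block as well it was 0.19, with 5 higher. Against selenium the median was 0.12, with 5 higher (all genes 0.0010, 50.1% higher). Spread was ordinary: residual SDs without the dim array were 0.34 to 0.61, at percentiles 41.3 to 78.1 of all genes, lowest for Cxcr3 and highest for S1pr5.

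On the dimmest arrays the probes of 1 gene came apart. For Cxcr4 the upstream minus the downstream probe was -1.86 to -0.33 (median -1.28) on 18 arrays, but -2.69 in ptaquiloside mouse 4 and -4.22 in mouse 5 given both compounds. In that mouse the downstream probe was the highest of all 20 mice at 5.60, and the upstream probe, at 1.38, the lowest but one. For Spn the probe at chr7:134278174-134278233 minus the brightest one was -3.20 to -2.46 on 14 other arrays, and -5.28 and -4.29 on these arrays. The brightest probe minus the third, most downstream one (chr7:134276054-134276113) was 8.43 to 9.86 on those 14, and 9.32 and 9.44 on the 2, within their range. For Cx3cr1 the order turned round on ptaquiloside mouse 4 (1.98 against -4.73 to -2.37), where the upstream probe, above background on only 10 of 20 arrays, was at its highest. For Itgam the difference was 1.43 on that array, against -0.81 to 0.48. Over the 19 brighter arrays the probes of Cxcr4 correlated at r of -0.24 and rho of 0.16, and those of Cx3cr1 at 0.24 and 0.19. The negative r of Cxcr4 rests on mouse 5 given both compounds: without it the values were 0.47 and 0.37 over 18 arrays, against 0.32 and 0.33 for Cx3cr1 and 0.82 and 0.85 for Itgam. As a description, the upstream probes lay below the downstream ones by more than usual in Cxcr4 and Spn on both arrays.

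**Figure D4:**
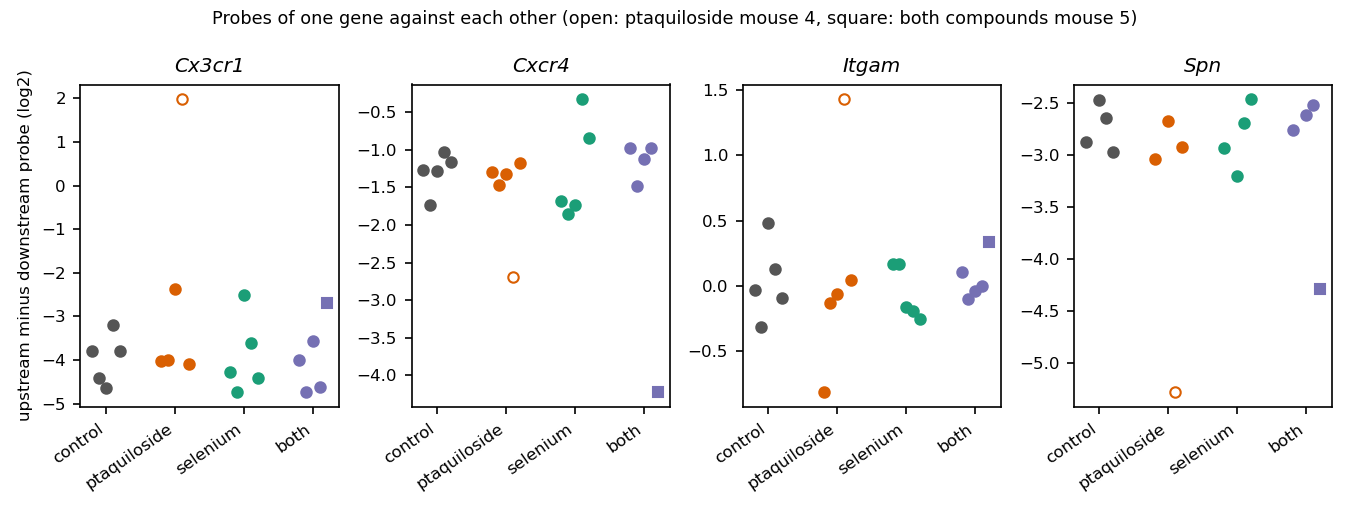
Upstream minus downstream probe of the same gene (log2, vertical axis) in every mouse by group; the open point is ptaquiloside mouse 4 and the square is mouse 5 given both compounds. These 2 arrays lie outside the others for Cxcr4 (-2.69 and -4.22 against -1.86 to -0.33) and Spn, and the open point alone for Cx3cr1 and Itgam.

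Between members, 0 of 28 pairs passed after adjustment over the 19 brighter arrays. The pair with the highest r was Cd27 and Cx3cr1 (r of 0.54 and rho of 0.50, permutation p = 0.0178 and 0.0323, adjusted 0.274 and 0.452). With all 20 arrays this pair had r of 0.70 (adjusted permutation p = 0.0179) and 0.50 without the 2 farthest mice, so the adjusted call rests on the dim array. Of the 64 pairs of a member and a marker list 2 passed by both measures, S1pr1 with T cells and S1pr5 with NK cells.

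Genes that work with these receptors were measured as 4 lists, and limma called 0 of them in any comparison, with 0 at an unadjusted p under 0.05. Of ligands and the enzymes that make or break down S1P 13 of 14 were tested. In ptaquiloside mice Spns2, the exporter of S1P, differed from control by -0.70 ± 0.38 (SE) and Sgpp1, an S1P phosphatase, by -0.49 ± 0.30, and without the dim array by -0.39 and -0.13. Cxcl16, the ligand of Cxcr6, stood at -0.54 ± 0.29 with selenium and -0.47 ± 0.29 with both compounds, and Icam2, a ligand of leukocyte integrins, at 0.20 ± 0.25 with selenium. Cxcl9, a Cxcr3 ligand, was at -0.34 ± 0.39 with both compounds. Medians of the list were -0.20, 0.010 and -0.17 for ptaquiloside, selenium and both compounds against control, with 2, 7 and 2 of 13 genes higher. Without the dim array the first became 0 with 7 higher.

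Of other trafficking receptors and integrins 20 of 21 were tested. Itgb2, the beta chain that pairs with Itgam, was at -0.70 ± 0.42 (SE) with ptaquiloside and -0.29 without the dim array. Itga4, a chain of the VCAM-1 receptor, was at -0.37 ± 0.22 with ptaquiloside (-0.45 without the dim array) and -0.29 ± 0.22 with both compounds. Itga1, a collagen receptor chain, was at 0.87 ± 0.95 with both compounds. With selenium the B cell homing receptor Cxcr5 was at -1.21 ± 0.83, beside the B cell markers given above, and Itgb7 at 0.25 ± 0.23. The medians were -0.34, 0.050 and -0.030, with 4, 12 and 10 of 20 higher, and the first was -0.050 without the dim array.

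Of genes for receptor signalling and turnover all 23 were tested. Traf2, the adaptor that CD27 binds, was at 0.33 ± 0.18 (SE), 0.21 ± 0.18 and 0.17 ± 0.18 for ptaquiloside, selenium and both compounds. Arrb1, an arrestin that takes up activated chemokine receptors, was at 0.33 ± 0.17 with selenium and 0.15 ± 0.17 with both compounds. Rdx, which links membrane proteins to actin, was at -0.96 ± 0.52 with ptaquiloside but -0.21 without the dim array. The medians were -0.48, 0.010 and -0.020, with 6, 13 and 10 of 23 higher, and the first was 0.020 with 16 higher without the dim array.

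Of maturation stage genes all 17 were tested. Zeb2, a transcription factor of terminal NK maturation, was at -0.37 ± 0.31 (SE) with ptaquiloside and -0.42 ± 0.31 with selenium. Ly6c2, a surface protein of mature NK cells, was at 0.49 ± 0.31 with selenium. Cd160 was at 0.67 ± 0.46 with ptaquiloside (0.17 without the dim array) and 0.53 ± 0.46 with both compounds, and Il7r, the interleukin-7 receptor chain, at -0.24 ± 0.24 with both compounds. The medians were -0.19, 0.060 and -0.040, with 6, 10 and 8 of 17 higher, and the first was 0.13 with 13 higher without the dim array. In all 4 lists, then, the median for ptaquiloside was nearer to 0 or turned round once that array was left out.

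The genes most like each member were taken as the 3 with the highest Pearson r over the 19 brighter arrays after slide means were removed, among 17344 genes with a value on all of them. For S1pr5 they were Cd300e (0.86), the tumour necrosis factor receptor Tnfrsf1a (0.85) and Nfil3 (0.84), a transcription factor needed for NK cell development. For Cd27 they were Fig4, Lrba and 1810030O07Rik (0.93 each), and for Itgam C130098B18Rik (0.89), A130071D04Rik (0.87) and Rab3gap1 (0.85). For Cxcr3 they included Zc3h12d and Zfp82 (0.83 each). For Cxcr4 they were Ppp1r12a (0.93), Gosr1 (0.91) and Mis18a (0.90), and for Cx3cr1 Gpr35 (0.94), Ext1 (0.93) and Cyp27a1 (0.92). The 3 for S1pr1 carry transcript identifiers with no gene symbol (0.90 to 0.91), and Spn, with values missing, was not ranked. These values describe arrays that share slides and, as maxima over so many genes, are high by selection.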

How the data were processed

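Cy3-labelled cRNA of splenic NK cells was hybridised to single-colour Agilent mouse arrays. The deposited scanner files hold intensity values, made with Agilent Feature Extraction 9.5.3.1 per the submitters' processing notes; the processed signal is background-subtracted and not scaled between arrays, per the file headers. Flags of unit other, per the file headers, mark controls, outliers and spots with signal well above background. The authors' deposited table holds log2 values in which, per its header, 1 control and 1 ptaquiloside array were replaced by means. Compared with the scanner files, its columns for selenium and for both compounds are log2 processed signal plus 19.93. The same constant was taken off the ptaquiloside columns. The table entered only as an alternative, and 5 of its columns were not used. Its control columns were not read, so control values in that alternative came from the scanner files.

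Control and outlier spots were left out, log2 signal was taken relative to the 75th percentile of the array, replicate spots were averaged, and a probe was kept if it was well above background on 5 or more of the 20 arrays, with the brightest probe per gene. Names were updated through accessions for 25263 of 41174 probes, and 15911 kept the file's name. Two-sided tests used limma 3.58.1 (R 4.3.3) with 1 mean per group. Correlations pooled the 4 groups without removing group means and used 100000 permutations (scipy 1.17.1). The fit was tested on simulated data. The members, lists and alternatives were chosen with earlier results of these data known. Named genes are the members, 2 genes of smallest p per pathway list and comparison with control, and 3 nearest genes per member, of which 1 is not reported here. Alternatives were other scalings, background correction, filters, all probes, the slide as a block, the methods' t-test, the deposited table and leaving out arrays. Each array is a separate mouse.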

Additional observations from a re-analysis of the deposited data

Results flagged for a closer look

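Of 52 sets of arrays (13 probes in 4 groups) 6 held a mouse that stood far from the others of its group. Independent normal values would give about 1 in 20 sets. These sets share arrays and genes, and part of the 6 lie on the dim array, so the count was not tested against that rate. Cd27 was low in selenium mouse 1 (1.22, next 2.19) and Itgam high in control mouse 3 (1.93, next 1.12). The brightest Spn probe was low in ptaquiloside mouse 3 (4.97, next 6.14), and the most downstream one in mouse 3 given both compounds (-3.89, next -3.07), a group in which it was well above background on 4 of 5 arrays. On the dim array of ptaquiloside mouse 4 the upstream Cxcr4 probe was low (0.040, next 2.33) and the upstream Cx3cr1 probe high (-0.22, next -3.34).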

How the results depend on the processing

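limma called 0 genes, and 0 members, in each comparison under every alternative tried, apart from 1 unnamed transcript that was called in the interaction without mouse 4 given both compounds (2.47, adjusted p = 0.0274, against 2.15 and 0.998 with all arrays; range over single left-out arrays 0 to 1). The methods' t-test with its fold limit called 0 as well. That t-test used log2 signal not scaled between arrays and kept the dim array, so array brightness enters its differences. The alternative with the deposited table was not scaled either. It left out control mouse 1 and ptaquiloside mouse 4 and took its control values from the scanner files. For S1pr1, over all alternatives, selenium minus control lay between -0.865 and -0.535, both compounds minus selenium between 0.731 and 1.174 and the interaction between 0.683 and 1.312. Median scaling turned the sign of Cxcr3 (-0.222) for ptaquiloside minus control, Cxcr3 (0.031) for both compounds minus ptaquiloside and Cx3cr1 (-0.016) for both compounds minus selenium. Quantile normalization turned the sign of Spn (0.101) and S1pr1 (0.13) for ptaquiloside minus control and Spn (-0.139) in the interaction. Normexp correction turned the sign of Spn (0.086) and S1pr1 (0.101) for ptaquiloside minus control and Spn (-0.165) in the interaction. The replicate block without ptaquiloside replicate 4 turned the sign of Cxcr3 (-0.019) for ptaquiloside minus control, S1pr5 (-0.001) and Cx3cr1 (-0.013) for both compounds minus ptaquiloside and Cd27 (-0.024) and S1pr5 (-0.091) in the interaction. The authors' deposited table turned the sign of Cxcr3 (-0.158) for ptaquiloside minus control, Cd27 (-0.202) and Spn (-0.393) for selenium minus control, Itgam (-0.134) and Spn (-0.319) for both compounds minus control, S1pr5 (-0.118) and Cx3cr1 (-0.044) for both compounds minus ptaquiloside, Spn (0.073) for both compounds minus selenium and S1pr5 (-0.129) in the interaction. The methods' t-test turned the sign of Cxcr3 (-0.736) for ptaquiloside minus control, Cd27 (-0.085) and S1pr5 (-0.064) for selenium minus control, Itgam (-0.104) and Spn (-0.097) for both compounds minus control and Cxcr3 (0.393) for both compounds minus ptaquiloside. Leaving out both arrays of lowest percentile (chosen after seeing the data) turned the sign of Cxcr3 (-0.013) for ptaquiloside minus control, Cd27 (0.135), Itgam (-0.015), S1pr5 (0.18) and Cxcr4 (-0.057) for both compounds minus control, Cxcr4 (-0.035) for both compounds minus ptaquiloside and Cd27 (0.066) and S1pr5 (0.091) for both compounds minus selenium. Single left-out arrays turned the sign of Cxcr3 (-0.097 to 0.156), S1pr1 (-0.229 to 0.168) and Spn (-0.203 to 0.222) for ptaquiloside minus control, Cd27 (-0.077 to 0.275), Cxcr4 (-0.231 to 0.109), Itgam (-0.21 to 0.071) and S1pr5 (-0.094 to 0.255) for selenium minus control, Cd27 (-0.327 to 0.135), Cxcr4 (-0.057 to 0.472), Itgam (-0.015 to 0.287) and S1pr5 (-0.264 to 0.18) for both compounds minus control, S1pr5 (-0.011 to 0.479) and Spn (-0.064 to 0.362) for both compounds minus ptaquiloside, Cd27 (-0.401 to 0.066), Cx3cr1 (-0.105 to 0.32), S1pr5 (-0.354 to 0.091) and Spn (-0.146 to 0.047) for both compounds minus selenium and Cxcr3 (-0.004 to 0.267), S1pr5 (-0.101 to 0.389) and Spn (-0.269 to 0.156) in the interaction. Cxcr4 for both compounds minus ptaquiloside was at most 0.771 with arrays left out. Among those that turned, the values with all arrays reached 0.545 (Cxcr4) and 0.489 (Cx3cr1) for both compounds minus ptaquiloside and 0.384 (Cd27) in the interaction. No member crossed the threshold, and the cause was not tested. Changing the filter, testing all probes separately and the replicate block on all arrays turned no sign, but could not do so. The same probe stood for each member in them, and each slide held all groups. Other probes of these genes, for both compounds minus control, turned the sign of Cxcr4 (-0.212 against 0.246) and Spn (-0.068 and -0.101 against 0.159). Those of Itgam (0.071) and Cx3cr1 (-0.414) kept it. Other scalings put levels on another scale and were not compared. Same-numbered mice deviated together in 24 of 30 pairs (r over 0.1; range -0.344 to 0.712), and 17 of 20 arrays correlated best with their own slide (the mouse number is the slide, a shared batch, and no label pairs the mice). The slide is therefore given as a block beside the results it bears on. With the replicate block the called genes stayed at 0 in each comparison. Over 20 arrays 1 pair of members passed in place of 0, and with slide means removed 1 pair of a member and a marker score in place of 2. Signal over background limits the upstream Cx3cr1 probe, detected on 10 of 20 arrays.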
